A study of Mus musculus with 4 samples.

Results

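Potassium channel genes were examined in maps of open chromatin from 4 mouse skeletal muscles, and their members were every ATAC-seq peak whose assigned gene name starts with Kcn. ATAC-seq inserts adapters with a transposase into accessible DNA, and a peak is a place where the sequenced ends, called tags, pile up. Of 120839 peaks in the 4 lists, 382 were assigned to 67 Kcn genes. The muscles came from wild type C57BL/6 mice, described by the study as sedentary. Fast glycolytic muscle was represented by quadriceps (Quad) and extensor digitorum longus (EDL), slow oxidative muscle by soleus (Sol), and trunk muscle by diaphragm (Dia). Where 4 values are listed without names, they follow the order EDL, Quad, Sol and Dia. Each muscle had 1 library, which the labels call pooled, and the number of animals in each pool is not known. With 1 library per muscle there is no replicate check, so no difference between muscles was tested.

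Potassium channels let potassium ions leave or enter a cell and so set the resting membrane potential and end each action potential. In muscle fibres they shape the length of the action potential, stabilise the membrane during repeated firing, and couple excitability to calcium and to metabolic state. The genes fall into voltage-gated pores (Kcna, Kcnb, Kcnc, Kcnd, Kcnh, Kcnq), inward rectifiers (Kcnj), tandem pore-domain leak channels (Kcnk), calcium- or sodium-activated channels (Kcnma, Kcnmb, Kcnn, Kcnt, Kcnu), auxiliary subunits (Kcnab, Kcne, Kcnip) and modulatory pore subunits that are silent alone (Kcnf, Kcng, Kcns, Kcnv).

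A peak was counted as a promoter peak where the authors' annotation gave it the class promoter-TSS, in which TSS is the transcription start site. The score of a peak is the authors' tag signal scaled to the library, and its percentile is its rank among all peaks of the same list, with the highest score near 100. The numbers of peaks called were 30136, 40337, 28784 and 21582. The scores moved in steps of 1 tag, from which library sizes of 104, 78.1, 105 and 99.3 M tags (M, mega) were inferred. The lowest score listed was 3.27, 3.20, 3.06 and 3.63 in EDL, Quad, Sol and Dia. Absence of a peak says that the caller listed none there, not that the DNA was closed. Of 10 genes that mark muscle fibres, 8, 8, 7 and 4 had a promoter peak in EDL, Quad, Sol and Dia.

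The sequences under 3 kinds of Kcn region are shown first, as examples. All are from GRCm38 (mm10), are written on the strand of the Kcn gene, and overlap no exon annotated in GENCODE. The first pair are promoter peaks with capitals marking CG dinucleotides. The Kcnj2 promoter (chr11:111065940-111066128, plus strand) carried a peak in every muscle, and the Kcnj12 promoter (chr11:61022389-61022563, plus strand) carried one in Quad and in no other list. The Kcnj12 peak is shown without its last bases, which are exonic.

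Kcnj2 promoter: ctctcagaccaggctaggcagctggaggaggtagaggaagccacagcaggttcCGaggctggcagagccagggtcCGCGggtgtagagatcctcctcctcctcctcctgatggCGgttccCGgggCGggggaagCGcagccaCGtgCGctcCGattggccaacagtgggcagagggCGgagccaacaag
Kcnj12 promoter: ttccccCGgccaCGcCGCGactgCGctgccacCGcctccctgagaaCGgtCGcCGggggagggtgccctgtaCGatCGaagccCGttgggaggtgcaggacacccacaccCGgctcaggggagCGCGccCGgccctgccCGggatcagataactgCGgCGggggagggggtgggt

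The Kcnj12 sequence held 19 CG dinucleotides in 175 bases and was 73.7% GC, against 11 in 189 bases and 66.7% GC in the Kcnj2 sequence. The Kcnj2 sequence also holds a CAGCTG, left in lower case here. The next sequences are peaks outside promoters, with capitals marking the motifs searched (given at the end of the results). The Kcnc1 intron 1 peak at 7.30 kb from the TSS (chr7:46403663-46403871, plus strand) was present in every muscle and held a CAGCTG and an AAGGTCA. The Kcnma1 intron 1 peak at 101 kb (chr14:23902792-23902998, minus strand) was also present in every muscle, and in it a TGGAAA overlapped an AAGGTCA.

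Kcnc1 intron peak, every muscle: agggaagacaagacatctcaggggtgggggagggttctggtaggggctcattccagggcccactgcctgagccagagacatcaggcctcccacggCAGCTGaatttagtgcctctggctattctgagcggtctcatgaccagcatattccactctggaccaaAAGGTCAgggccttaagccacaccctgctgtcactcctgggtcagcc
Kcnma1 intron peak, every muscle: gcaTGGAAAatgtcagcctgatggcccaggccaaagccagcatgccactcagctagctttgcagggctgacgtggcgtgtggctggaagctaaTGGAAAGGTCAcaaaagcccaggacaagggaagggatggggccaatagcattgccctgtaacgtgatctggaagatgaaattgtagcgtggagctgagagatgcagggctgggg

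The last sequences belong to regions that were open in some muscles. These were the Kcnc1 intron 1 peak at 18.0 kb (chr7:46414363-46414551, plus strand; EDL and Quad), the peak upstream of Kcnj11 in an intron of Abcc8 (chr7:46116236-46116424, minus strand; EDL, Quad and Dia) and the Kcnn3 intron 1 peak (chr3:89522791-89522997, plus strand; EDL and Sol). None of the letters searched occurs in these windows, so they have no capitals. The printed peaks are examples, and other Kcnc1 regions differed from them. The region at 12.3 kb, open in EDL and Quad alone, held a CAGCTG and a MEF2 motif. The region at 14.5 kb, open in EDL alone, held an AAGGTCA. The region at 85.8 kb, open in every muscle, held none of the letters in its 200-bp window.

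Kcnc1 intron peak, EDL and Quad: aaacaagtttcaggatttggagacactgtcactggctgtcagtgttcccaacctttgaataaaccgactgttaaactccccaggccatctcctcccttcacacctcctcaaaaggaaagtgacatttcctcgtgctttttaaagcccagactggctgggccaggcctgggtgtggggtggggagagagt
Kcnj11 upstream peak, EDL, Quad and Dia: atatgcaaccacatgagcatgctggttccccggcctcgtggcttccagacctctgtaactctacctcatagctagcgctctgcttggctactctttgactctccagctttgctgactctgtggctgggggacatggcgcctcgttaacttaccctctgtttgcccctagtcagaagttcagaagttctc
Kcnn3 intron peak, EDL and Sol: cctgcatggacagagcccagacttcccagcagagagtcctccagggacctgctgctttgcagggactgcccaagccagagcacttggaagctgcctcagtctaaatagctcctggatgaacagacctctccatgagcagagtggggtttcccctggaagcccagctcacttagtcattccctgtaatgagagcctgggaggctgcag

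Kcn genes had many peaks away from promoters and few at promoters. EDL had 90 Kcn peaks, of which 13 were promoter peaks. Quad had 149, of which 24 were promoter peaks, Sol had 96 with 14, and Dia had 47 with 11. Kcn peaks were 0.299%, 0.369%, 0.334% and 0.218% of all peaks in EDL, Quad, Sol and Dia. Promoter peaks made up 14.4% of the Kcn peaks in EDL (95% Wilson interval 8.64% to 23.2%), 16.1% in Quad (11.1% to 22.8%), 14.6% in Sol (8.89% to 23.0%) and 23.4% in Dia (13.6% to 37.2%). Over all peaks of a list the share was 30.7%, 25.5%, 31.9% and 41.3% in EDL, Quad, Sol and Dia. The Kcn share was lower than that of the rest of the list by 16.3 percentage points in EDL, and the Newcombe interval of the difference ran from -22.2 to -7.60 points. The difference was -9.45 points in Quad (-14.5 to -2.69), -17.3 in Sol (-23.1 to -8.91) and -17.9 in Dia (-27.7 to -4.07). All intervals in the text cover counting error only, and peaks of 1 gene are not independent of each other.

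Counted by gene, 65 of the 94 coding Kcn genes in RefSeq had a peak of any kind in some list, or 69.1%, against 65.6% of all coding genes. A promoter peak was found for 26 of the 94, or 27.7% (19.6% to 37.4%), against 46.7% of all coding genes. In single lists the share with a promoter peak was 12.8%, 23.4%, 12.8% and 10.6% in EDL, Quad, Sol and Dia, against 37.7%, 41.3%, 37.6% and 37.0% of all coding genes. The other 2 of the 67 gene names were non-coding transcripts, Kcnq1ot1 and Kcnmb4os2, named here because they complete the count. No peak in any list was assigned to 29 coding Kcn genes. Among them were the axonal Kcna1 and Kcnn4, a calcium-activated channel of blood cells and endothelium.

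The median rank of Kcn promoter peaks was below that of promoter peaks in general in each list, and in Quad beyond its interval. The median score percentile was 70.2, 55.7, 54.5 and 59.2 in EDL, Quad, Sol and Dia, where all promoter peaks had medians of 76.3, 81.3, 75.7 and 74.1. The 95% interval of the Kcn median, from order statistics, ended below the median of all promoter peaks in Quad, at 77.5, and included it in EDL, Sol and Dia, where it reached 88.2, 79.9 and 83.3. Other Kcn peaks had medians of 35.7, 34.4, 35.2 and 21.7 in EDL, Quad, Sol and Dia, against 38.3, 40.0, 38.2 and 34.1 for all peaks outside promoters. The order-statistic interval included the median of all such peaks in EDL, Sol and Dia, and in Quad its upper end was at that median, 40.0.

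**Figure D1:**
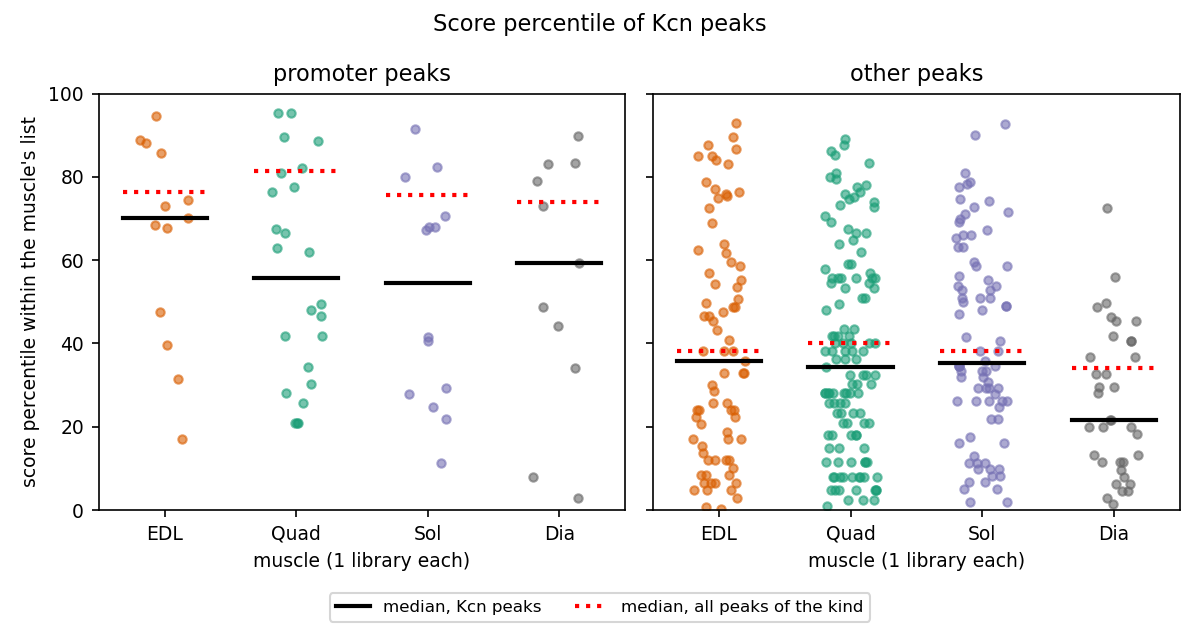
Score percentile (y axis) of every Kcn peak in EDL, Quad, Sol and Dia (x axis), with promoter peaks on the left and other peaks on the right; black bars are the medians of the Kcn peaks and red dotted bars the medians of all peaks of that kind in the list. In Quad the promoter median of 55.7 sits below the 81.3 of all promoter peaks, and the other peaks spread over nearly the whole range.

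The peaks of the 4 lists were joined into 209 Kcn regions, of which 29 held a promoter peak. Of the 29 promoter regions, 9 (31.0%, 17.3% to 49.2%) were open in all 4 lists, against 66.1% of all promoter regions. A further 10 (34.5%, 19.9% to 52.7%) had a peak in Quad and in no other list, against 7.71% of all promoter regions. The Quad list was the longest of the 4. The promoter regions open in all muscles included those of Kcnj2, Kcnab2, Kcnq1ot1, Kcnab3, Kcnn3, Kcna7, Kcna5 and Kcnk5, of which Kcnq1ot1, Kcnab3 and Kcnk5 were named after their values were seen.

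Kcnj2 encodes the inward rectifier that holds the resting potential of the muscle fibre. Its promoter, shown above, had a percentile of 88.8, 95.4, 91.6 and 89.8 in EDL, Quad, Sol and Dia. The scores were 14.7, 20.5, 16.3 and 16.3 in EDL, Quad, Sol and Dia, from 153, 160, 171 and 162 tags. No other coding Kcn promoter ranked as high in any of the 4 muscles. Kcnab2, a cytoplasmic beta subunit, had a promoter region at percentile 88.2, 95.3, 90.3 and 83.3 in EDL, Quad, Sol and Dia. The Sol peak there was assigned to the neighbouring Nphp4, so it is not among the Kcn peaks of Sol. Kcnq1ot1, the non-coding transcript antisense to Kcnq1, stood at 94.6, 88.5, 82.3 and 83.0 in EDL, Quad, Sol and Dia.

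Kcna7, a voltage-gated channel of skeletal muscle and heart, had its promoter peak at percentile 74.4, 63.0, 67.3 and 48.7 in EDL, Quad, Sol and Dia. Kcnn3, a small-conductance calcium-activated channel, was at 67.8, 82.1, 70.5 and 44.1 in EDL, Quad, Sol and Dia. Kcna5, a voltage-gated channel also known from heart and vascular smooth muscle, was at 72.9, 77.5, 67.9 and 34.1 in EDL, Quad, Sol and Dia. These promoters all ranked lowest in Dia. So did those of the muscle marker genes with a Dia promoter peak, at 69.3 (Acta1), 62.1 (Ckm), 57.6 (Des) and 71.9 (Ttn). Kcnk5, a leak channel, ran from 31.6 in EDL to 67.4 in Quad, and Kcnab3 from 70.2 in EDL to 80.8 in Quad.

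The 10 promoter regions found in Quad alone included those of Kcnj12, Kcnc4, Kcnh2 (at 2 start sites), Kcna10, Kcna3, Kcnn1, Kcnh1 and Kcnj10. The median Quad percentile of the 10 was 36.0. The median over all promoter regions open in Quad alone was 43.4. Peaks of the other lists lay 8668 bp or more from each of them. Kcnj12, an inward rectifier related to Kcnj2, was at percentile 66.6 with 67 tags and a score of 8.58. Kcnc4, a voltage-gated pore, was at 62.1. When each list was limited to its 20000 highest-scored peaks, 3 of the 10 regions stayed in Quad, the promoters of Kcnj12 and Kcnc4 among them, and the other 7 dropped out.

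The weaker promoters of this set included genes known mainly from other tissues. Kcnh2, which repolarises the cardiac action potential, was at percentile 41.8 at one start site and 49.4 at the other. Kcna3, a lymphocyte channel, was at 28.0 and Kcnj10, a glial inward rectifier, at 20.8. Kcna10 was at 30.2, Kcnn1, a small-conductance calcium-activated channel, at 25.8, and Kcnh1, an ether-a-go-go channel, at 20.8. In Quad, 3 of 5 smooth muscle marker genes had a promoter peak, against 1 in EDL and 0 in Sol and Dia. Over all coding genes the share with a promoter peak was 37.7%, 41.3%, 37.6% and 37.0% in EDL, Quad, Sol and Dia. The Quad peaks of the smooth muscle markers were low, at percentile 7.89 (Acta2), 11.6 (Myh11) and 15.0 (Notch3). The EDL peak, at Myh11, was at 28.6. The summed scores of all peaks at the 5 smooth muscle genes were 35.1, 55.5, 35.7 and 17.2. Those of the fibroblast markers were 45.7, 74.8, 26.8 and 6.55, and those of the leukocyte markers 13.5, 24.8, 6.59 and 0. The endothelial and nerve sums were also highest in Quad, the longest list, and the muscle marker sum was highest in Sol. None of 5 leukocyte and 5 nerve markers had a promoter peak in any list, and of 5 fibroblast markers 1 had one, in Sol. Of 5 endothelial markers, 4, 5, 4 and 2 had one in EDL, Quad, Sol and Dia. The part of other cell types in these promoter peaks was not tested.

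Single promoters were found in other muscles alone. Kcnc1, a fast delayed rectifier that supports short action potentials, had a promoter peak in EDL only, at percentile 68.4 with 96 tags, and its nearest Quad peak was 2648 bp away. Kcnip3, a calcium-binding partner of Kcnd channels, had one in Sol only at 24.8, and Kcnn2 had a promoter peak at a second start site in Sol only at 11.4. There the Quad list had a peak 143 bp away, not annotated as promoter, at 32.4. Kcnt2, a sodium-activated channel, had one in Dia only at 8.04. The first Kcnn2 start site was open in Quad at 48.0 and Sol at 27.7. Kcnk13, a leak channel, was open in the same pair, at 20.8 in Quad and 40.5 in Sol.

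The remaining promoter regions were shared by EDL and Quad or by 3 muscles. Kcnip1, another partner of Kcnd channels, was at percentile 39.6 in EDL and 34.4 in Quad. Kcng4, a silent subunit that joins Kcnb channels, was at 47.6 in EDL, and the overlapping Quad peak at 55.7 was not annotated as promoter. Kcne3, the auxiliary subunit that assembles with Kcnc4 in muscle, was at 17.1 in EDL, 41.8 in Quad and 29.3 in Sol, with no Dia peak. Kcnj8, the pore of ATP-sensitive channels in vascular smooth muscle, was at 46.5 in Quad, 21.9 in Sol and 2.92 in Dia, with no EDL peak. The muscle samples are bulk tissue, in which fewer cells of a type and less signal per cell cannot be told apart.

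**Figure D2:**
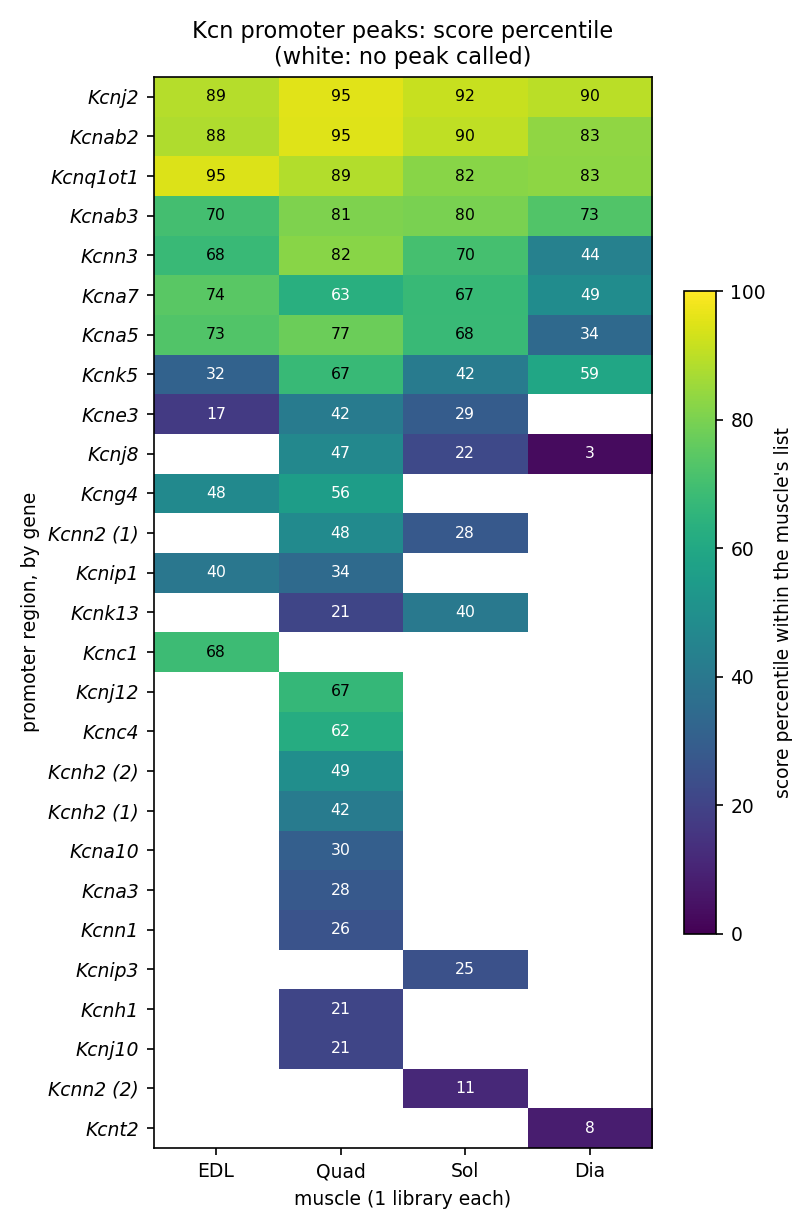
Score percentile (colour and number) of 27 Kcn promoter regions (rows, by gene) in EDL, Quad, Sol and Dia (columns); white means that no peak was called, and numbers in brackets separate start sites of 1 gene. The 8 regions at the top are open in all muscles, and 9 of the lower rows are filled in Quad alone.

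Outside promoters there were 180 Kcn regions, of which 101 (56.1%, 48.8% to 63.2%) were seen in 1 list, against 50.5% of all regions outside promoters, a share inside that interval. Of the 180, 17 (9.44%, 5.98% to 14.6%) were open in all 4 lists, against 16.0% of all regions outside promoters. Quad alone had 55 (30.6%), against 26.9%, and Sol alone 26 (14.4%), against 10.4%. EDL and Quad together, without the others, had 17 (9.44%), against 9.57%. A Dia peak was present in 36 of the 180, or 20% (14.8% to 26.4%), against 29.5% of all regions outside promoters. None of the 180 (0%, 0% to 2.09%) was open in Sol and Dia and in neither of the others, against 1.34% of all regions outside promoters. The 101 regions in 1 list had a median percentile of 21.9, while the best percentile of those in 3 lists had a median of 59.3. The best of 3 values tends to exceed a single value by construction, and the same medians were not computed over all regions.

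Of all 209 regions, 91 (43.5%) lay inside their own gene, 22 inside another gene, 2 inside another Kcn gene and 65 between genes. The distance to the TSS was over 50 kb for 64 regions (30.6%). Pairs of lists shared between 22.5% (Quad and Dia) and 40.6% (EDL and Sol) of the Kcn regions open in either of them, and every pair shared less than over all regions, where the values were 39.2% to 53.7%. EDL and Quad shared 68 regions, which are 75.6% of the EDL regions and 45.6% of the Quad regions. Across these 68 regions the percentiles had a Spearman rho of 0.82, and across the 32 that EDL and Dia shared it was 0.44. These correlations are across regions, which are not replicates.

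Among voltage-gated pores, Kcnc1 held 2 of the 5 Kcn regions with the highest mean percentile among those outside promoters and open in all muscles. It had 6, 7, 2 and 2 peaks in EDL, Quad, Sol and Dia, in 9 regions. The intron 1 region at 7.30 kb had a percentile of 92.9, 89.0, 74.7 and 41.7 in EDL, Quad, Sol and Dia. Its scores were 17.4 in EDL (exact Poisson interval 15.0 to 20.1), 14.7 in Quad (12.2 to 17.7), 10.5 in Sol (8.64 to 12.7) and 6.75 in Dia (5.23 to 8.57). The intervals of EDL and Quad overlapped, as did those of Quad and Sol. The EDL interval lay above that of Sol, and the Dia interval lay below the others. The peak widths behind these scores differed, from 188 bp in Quad to 232 bp in Dia.

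Further into Kcnc1 intron 1, the regions at 12.3 kb and 18.0 kb were open in EDL and Quad alone. The first was at percentile 76.3 in EDL and 79.4 in Quad, and the second, whose sequence is given above, at 78.8 in EDL and 83.3 in Quad. The nearest Sol peaks were 4841 bp and 10411 bp away. A region at 14.5 kb was open in EDL alone at 75.4. A distal region at 85.8 kb, inside intron 10 of Sergef, had another order, with percentiles of 89.6, 77.5, 92.7 and 72.5 in EDL, Quad, Sol and Dia. It was the highest Dia peak of any Kcn gene outside promoters.

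Kcnc4, the partner of Kcne3, had 2, 6, 2 and 1 peaks in EDL, Quad, Sol and Dia. A region 58.8 kb from its TSS was open in all muscles, at percentile 86.7, 85.3, 52.8 and 11.4 in EDL, Quad, Sol and Dia. A region at 46.4 kb was at 46.6 in EDL, 72.6 in Quad and 29.3 in Sol. The promoter and the regions within 12 kb of it were open in Quad alone.

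The Kcnq genes had 4, 9, 6 and 0 peaks in EDL, Quad, Sol and Dia. Kcnq5, a related channel found in muscle and brain, had 2 peaks in EDL, 2 in Quad and 3 in Sol. Its region 108 kb upstream was open in Sol alone at percentile 71.1, with the nearest EDL and Quad peaks 320604 bp and 320621 bp away. Kcnq3, which is mainly neuronal, had 1 low peak in Quad (23.4) and 1 in Sol (40.5), at different places.

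Over the Kcnc subfamily there were 9, 15, 5 and 4 peaks, and the median percentile of those outside promoters was 78.8, 62.1, 63.8 and 41.7 in EDL, Quad, Sol and Dia. Outside promoters the Kcnc median was above the median of all such peaks in each list, which was 38.3, 40.0, 38.2 and 34.1. These Kcnc medians rest on few peaks of 3 genes, and no interval was computed for them. In Dia the peaks outside promoters were at 11.4, 41.7 and 72.5.

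The Kcna genes had 8, 8, 4 and 5 peaks in EDL, Quad, Sol and Dia, and those outside promoters were low, with medians from 6.36 in Dia to 23.0 in Quad. Kcna7 had a second EDL peak, annotated to an exon of its own, at percentile 61.8, and its promoter peak was its only peak in the other muscles. Kcna2, an axonal channel, had 1 peak in EDL at 24.0 and in Sol at 24.8, 29.2 kb from the TSS. The Kcnh genes had 1, 9, 4 and 0 peaks in EDL, Quad, Sol and Dia, and outside promoters the single EDL peak was at 8.31 and the medians were 14.8 in Quad and 12.2 in Sol. The Kcnd genes had 1, 3, 1 and 1 peaks in EDL, Quad, Sol and Dia, with no promoter peak.

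Inward rectifiers had 17, 27, 20 and 9 peaks in EDL, Quad, Sol and Dia, from 10 of 15 genes. Their medians outside promoters were 29.0, 25.8, 32.5 and 32.7. Kcnj2 had 7, 7, 5 and 3 in EDL, Quad, Sol and Dia. Outside its promoter, its regions at 20.7 kb and 23.0 kb were open in all muscles. The first was at percentile 22.3, 23.4, 35.8 and 32.7 in EDL, Quad, Sol and Dia. The second was at 6.46, 28.0, 48.0 and 46.4 in EDL, Quad, Sol and Dia. Both ranked higher in Sol and Dia than in EDL and Quad, whereas EDL outranked Dia at 21 of the 32 Kcn regions they shared. The other 7 were 57.3 kb to 814 kb away and are tied to Kcnj2 only as the nearest gene.

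Kcnj12 had 4, 8, 3 and 2 peaks in EDL, Quad, Sol and Dia. A region in its intron 1 was at percentile 77.1 in EDL, 66.6 in Quad and 80.8 in Sol, and 695 bp away a second was at 77.9 in Quad, 77.5 in Sol and 45.3 in Dia. Another region, 45.2 kb upstream, was open in Quad alone at 80.8, the highest of any Kcn region outside promoters found in 1 list. There the EDL and Sol lists had peaks 197 bp and 196 bp away, so the region is open nearby in those muscles too.

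Kcnj11 encodes the pore of the ATP-sensitive channel, which closes when ATP is high and pairs with the sulfonylurea receptors of Abcc8 and Abcc9. It had 3, 3, 2 and 1 peaks in EDL, Quad, Sol and Dia, and no promoter peak. The region 15.6 kb upstream, in intron 26 of Abcc8, was at percentile 85.0 in EDL, 87.7 in Quad and 40.5 in Dia. Its scores were 13.1 in EDL (11.0 to 15.5), 14.1 in Quad (11.6 to 17.0) and 6.65 in Dia (5.14 to 8.46). The Sol list had no peak there, and its nearest was 3992 bp away in intron 29 of Abcc8 at percentile 49.0. A region 1.68 kb from the TSS was at 75.8 in EDL, 74.6 in Quad and 72.7 in Sol. Kcnj6, a G protein-gated channel, had 1, 2, 4 and 1 peaks in EDL, Quad, Sol and Dia. Its region at 29.3 kb was open in all muscles at 49.7, 48.0, 51.0 and 21.7 in EDL, Quad, Sol and Dia.

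Kcnma1, the large-conductance channel that opens with calcium and voltage, had more regions than any other Kcn gene, 22, and no promoter peak. It had 12, 16, 13 and 5 peaks in EDL, Quad, Sol and Dia. Of the 22 regions, 21 were annotated to intron 1, and 14 lay between 50 and 200 kb from the TSS. The region at 101 kb was at percentile 85.0, 74.0, 90.1 and 45.3 in EDL, Quad, Sol and Dia. The region at 164 kb was at 87.6, 79.9, 53.7 and 13.2 in EDL, Quad, Sol and Dia. Their scores were 13.1 in EDL (11.0 to 15.5) and 15.4 in Sol (13.1 to 18.0) at the first, and 14.1 in EDL (12.0 to 16.6) and 7.55 in Sol (5.98 to 9.41) at the second. The order of EDL and Sol thus differed between regions of 1 intron, and at the first their intervals overlapped.

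Other Kcnma1 regions also differed in rank between muscles. The region at 81.0 kb was at percentile 4.70 in EDL, 55.7 in Quad and 65.3 in Sol, and the region at 124 kb was open in EDL alone at 69.0. A cluster of 3 regions between 60.2 and 61.9 kb reached 78.3 in Sol, at 60.2 kb. There EDL was at 63.9 and Quad at 64.9, with scores of 8.56 in EDL, 8.32 in Quad and 11.3 in Sol. The beta subunit gene Kcnmb1, which encodes the form typical of smooth muscle, had 1 peak in Sol (33.4) and 1 in Dia (8.04), both inside Kcnip1, and none in EDL or Quad. Over the Kcnmb genes there were 0, 1, 2 and 1 peaks, and no peak was assigned to Kcnt1 or Kcnu1, the relatives opened by sodium or specific to sperm.

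The small-conductance Kcnn genes had 2, 5, 7 and 3 peaks in EDL, Quad, Sol and Dia, and Kcnn3 alone had 2, 2, 5 and 2. The intron 1 region at 2.73 kb was at percentile 78.8 in Sol and 47.6 in EDL, with scores of 11.4 (9.42 to 13.6) and 6.73 (5.25 to 8.51). The nearest Quad and Dia peaks were 2573 bp and 2602 bp away, at the promoter. A second intron 1 region at 9.39 kb was open in Sol alone at 66.0. At 58.8 kb a region was open in Quad at 7.89, Sol at 34.6 and Dia at 32.7. Kcnn3 had a promoter open in every muscle, and its strongest other peaks were in Sol.

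Leak channels had 9, 14, 8 and 5 peaks in EDL, Quad, Sol and Dia, and outside promoters their median percentiles were 33.2 in EDL, 34.0 in Quad and 10.6 in Dia, and higher in Sol than in these lists. Kcnk2, a mechanosensitive channel, had 2, 3, 2 and 1 peaks in EDL, Quad, Sol and Dia, and none above percentile 41.8. Kcnk7, a silent member of the family, had 2, 2, 3 and 0 peaks in EDL, Quad, Sol and Dia. Its strongest region was in intron 11 of Ehbp1l1, at 83.0 in EDL, 86.2 in Quad and 67.3 in Sol.

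Auxiliary subunits had 13, 23, 13 and 5 peaks in EDL, Quad, Sol and Dia. All 3 Kcnab genes had a peak in every list. Kcnab1 had its strongest region in intron 1 at 16.4 kb, at percentile 48.7 in EDL and 66.6 in Quad, and the nearest Sol peak was 171261 bp away. Kcnab2 also had an intron region at 20.5, 38.2, 58.6 and 11.4 in EDL, Quad, Sol and Dia. Kcne4, an inhibitory subunit of voltage-gated channels, had a region in Sol alone at 74.2, in an intron of the transcript Gm29536, 35.7 kb from its TSS. It was the strongest Kcn region found in Sol alone. The Kcnip genes had 5, 5, 4 and 0 peaks in EDL, Quad, Sol and Dia. The Kcnab genes had 5, 10, 4 and 4 peaks and the Kcne genes 3, 8, 5 and 1. Outside promoters the Kcnab medians were 33.0 in EDL, 29.1 in Quad and 33.4 in Sol, and 8.05 in Dia. No peak was assigned to Kcnrg, the remaining gene of this class.

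Modulatory subunits had the fewest peaks, 6, 11, 6 and 3 in EDL, Quad, Sol and Dia. The Kcng genes had 2, 5, 3 and 2 of these, the Kcns genes 1, 4, 2 and 0, the Kcnv genes 2, 1, 1 and 1, and Kcnf1 1, 1, 0 and 0. Of the 4 Kcng genes, Kcng4 had a Quad peak annotated to its 3′ UTR at percentile 70.5, and Kcng3 a peak in Dia alone at 36.8, 13.5 kb upstream. Together with Kcnn2, which had an intron peak at 40.5, Kcng3 held the highest regions found in Dia alone.

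**Figure D3:**
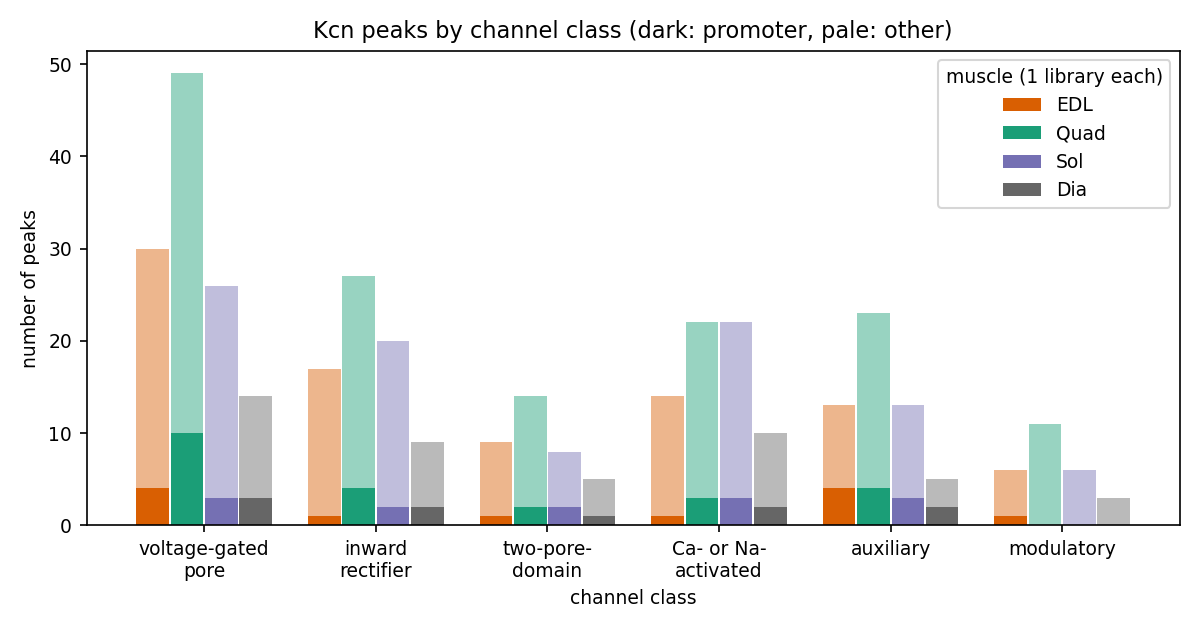
Number of Kcn peaks (y axis) by channel class (x axis) in EDL, Quad, Sol and Dia, with promoter peaks in dark colour and other peaks stacked above them in pale colour. Quad has the most peaks in each class except the calcium- or sodium-activated channels, where Quad and Sol both have 22. The counts are not scaled to list length, and the Quad list is the longest. Among the 20000 highest-scored peaks per list, Quad held 53 Kcn peaks and Sol 60.

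**Figure D4:**
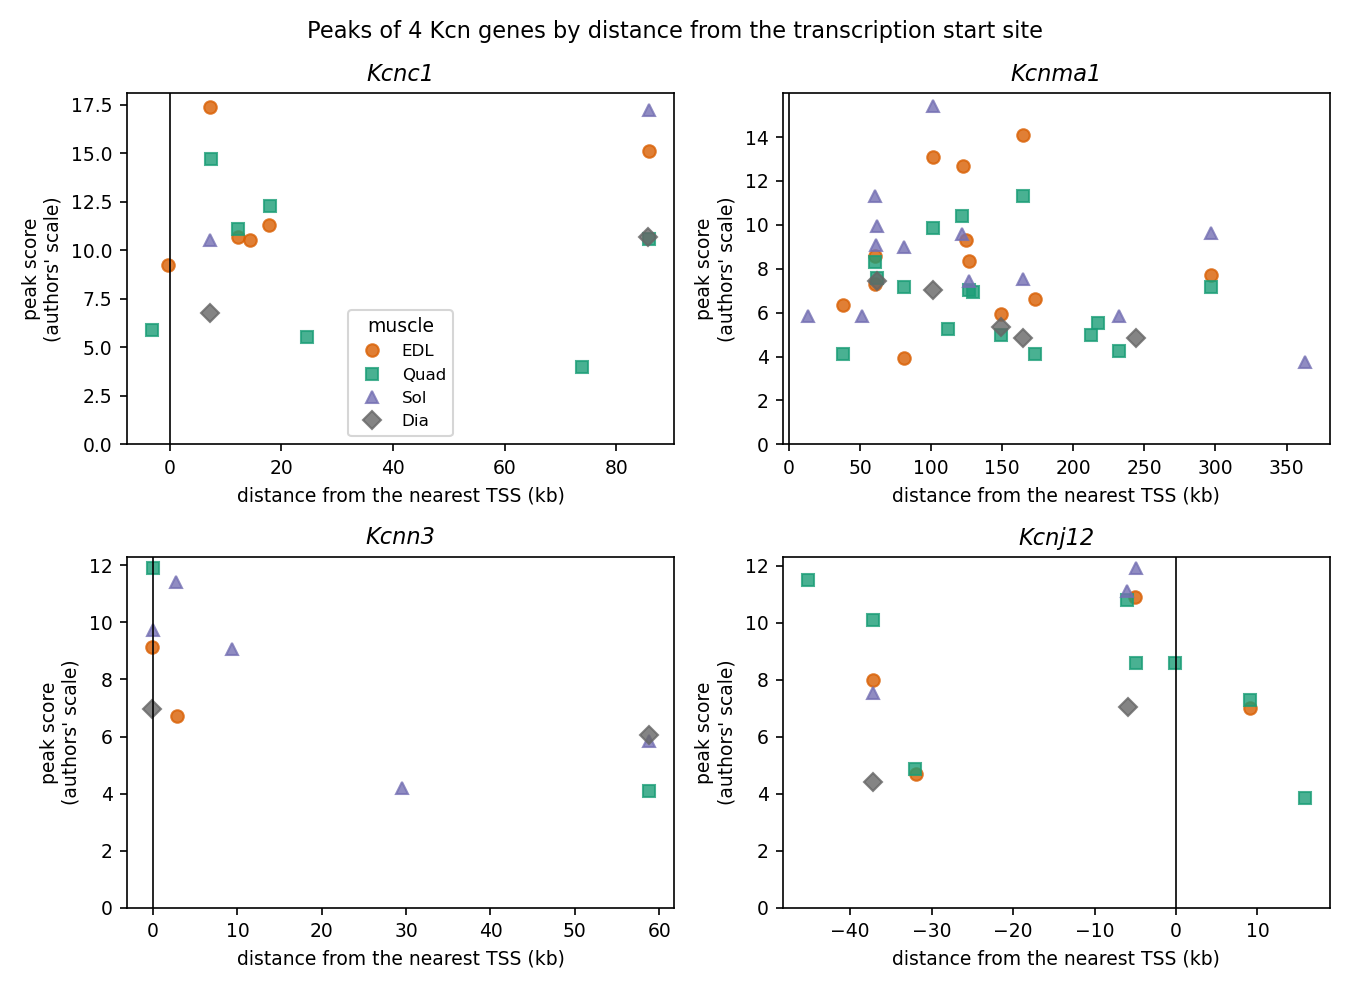
Peak score on the authors' scale (y axis) against distance from the nearest TSS in kb (x axis, vertical line at the TSS) for the peaks of Kcnc1, Kcnma1, Kcnn3 and Kcnj12 in EDL, Quad, Sol and Dia. Kcnc1 has peaks at 12.3 and 18.0 kb in EDL and Quad alone, and Kcnn3 has its peak at 9.39 kb in Sol alone.

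Of the 12 Kcn genes known for a role in muscle fibres, 11, 12, 11 and 9 had a peak in EDL, Quad, Sol and Dia, and 5, 7, 4 and 3 had a promoter peak. Of the 10 known mainly from vessels, blood cells, axons or glia, 2, 5, 5 and 3 had a peak in EDL, Quad, Sol and Dia, and 1, 4, 2 and 2 had a promoter peak. Over all coding genes, 37.7%, 41.3%, 37.6% and 37.0% had a promoter peak in EDL, Quad, Sol and Dia. The share with any peak in each list was not computed over all coding genes. Both lists were chosen with earlier results of these data known. The 12 genes held 43 of the 90 Kcn peaks in EDL and 60 of the 149 in Quad, 39 of the 96 in Sol and 18 of the 47 in Dia. Kcnma1 alone held 12, 16, 13 and 5 of these. Of 5 endothelial marker genes, 4, 5, 4 and 2 had a promoter peak in EDL, Quad, Sol and Dia.

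Between Quad and Sol, 35 of the 67 Kcn genes (52.2%) had the larger number of peaks in Quad, against 45.7% of all genes with a peak, and 11 (16.4%) had it in Sol, against 12.4%. The largest differences with more peaks in Quad were those of Kcnc1, Kcnj12 and Kcnab1 (7 against 2, 8 against 3 and 6 against 1), and Kcnc4 (6 against 2) was among the next. The Kcnj12 count includes a Quad peak with a Sol peak 196 bp away that was not assigned to Kcnj12. Kcnn3 (5 against 2), Kcnj6, Kcnk7, Kcnq5 and Kcnj8 had more in Sol. With each list limited to its 20000 highest-scored peaks the order turned. Then 9 of 39 genes had more in Quad (23.1%), against 20.6%, and 15 had fewer (38.5%), against 20.9%. Within this limit Quad held 53 Kcn peaks and Sol 60. Kcnc1, Kcnj12 and Kcnab1 then had 4 against 2, 6 against 3 and 2 against 1 in Quad and Sol.

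Genes that work with potassium channels were described with the same counts. Abcc8 had 3, 5, 2 and 0 peaks in EDL, Quad, Sol and Dia. Abcc9, the receptor of muscle and vessels, had 2 in each list. Scn4a, the muscle sodium channel, had 4, 4, 2 and 0 in EDL, Quad, Sol and Dia. Over the list of 19 partners, 13, 16, 10 and 7 had a peak in EDL, Quad, Sol and Dia. This list too was chosen with earlier results of these data known. The share of all coding genes with any peak in each list was not computed. A promoter peak in some list was found for 14.3% of the 14 voltage-gated sodium channel (Scn) genes, 34.6% of the 26 calcium channel (Cacn) genes, 55.6% of the 9 chloride channel (Clcn) genes and 25% of the 24 transient receptor potential (Trp) genes, beside the 27.7% of Kcn genes. The intervals are wide, from 4.01% to 39.9% for Scn and from 26.7% to 81.1% for Clcn.

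Letters of known muscle motifs were counted in 200-bp windows at the centres of the joined regions, on both strands. The sequences printed above are peaks, not these windows, so the CAGCTG of the Kcnj2 promoter is not counted here. The letters were the E-box CAGCTG, the nuclear receptor site AAGGTCA, the NFAT core TGGAAA, the AP-1 site TGANTCA with C or G at N, and MEF2. The last letters of TGGAAA and the first of AAGGTCA can overlap. Of the 180 Kcn regions outside promoters, 30.0% (23.8% to 37.1%) held a CAGCTG, against 22.7% of all such regions. AAGGTCA was in 9.44% (5.98% to 14.6%), against 5.73%, and MEF2 in 6.67% (3.85% to 11.3%), against 4.70%. TGGAAA was in 17.8% against 20.6%, and the AP-1 letters in 10.6% against 8.93%. In the 29 promoter windows CAGCTG was in 10.3% (3.58% to 26.4%), against 12.0% of all promoter windows. The 14 Kcn promoter windows open in 1 list had a median GC content of 70.0% and a median of 17 CG dinucleotides, while the 9 open in all lists had 60% and 10. Over all promoter regions the order was the other way, with 61.5% and 11 in 1 list and 64.5% and 17 in all lists. A match to these letters is a description of the sequence and does not show that a factor binds.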

How the data were processed

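ATAC-seq was performed on EDL, Quad, Sol and Dia of wild type mice, with 1 pooled library per muscle. According to the study's methods the authors aligned reads to mm10 with Bowtie2 and called and annotated peaks with HOMER, separately in each library. The submitters' processing notes name the same tools. Handling of the Tn5 offset and of mitochondrial or repeat reads is not given in the sources used here, and reads in repeats can be misplaced. The deposited peak score is a signal, the tags in a peak scaled to library size, and the deposited distance to the TSS is in bp (other unit). Tags were inferred from the score steps below a score of 10, assuming that scores are scaled to 10 M tags (M, mega). Then 100% of those scores in each list were whole tags within the rounding of the deposited values.

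Peaks were selected by gene name, ranked within their list, and joined into regions where they overlapped by at least 1 bp. Shares carry 95% Wilson intervals, differences Newcombe intervals, medians order-statistic intervals and scores exact Poisson intervals. Only 1 library per muscle was analysed, so no p-value was computed. Gene models came from RefSeq and GENCODE vM21, and sequence from GRCm38.p6. The text names genes of a muscle list and an other-cell list, genes with a promoter peak in 1 to 3 lists, the 5 with the most regions, the 5 with the largest Quad and Sol difference in each direction, the 5 highest shared regions outside promoters, and the 2 highest regions found in each muscle alone. Results for a few of these genes are not reported here, and the counts include them. The members, lists and motifs were chosen with earlier results of these data known. Alternatives were the 20000 highest peaks per list, autosomes and X only, promoters as peaks within 1 kb of a TSS, 50% reciprocal overlap, and joining peaks within 500 bp. The counting functions were tested on simulated data. Python 3.11.15, pandas 2.3.3, numpy 2.4.6, scipy 1.17.1, pysam 0.24.0 and matplotlib 3.10.9 were used.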

Additional observations from a re-analysis of the deposited data

How the results depend on the processing

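Limiting each list to its 20000 highest-scored peaks left 50 Kcn peaks in EDL, 53 in Quad and 60 in Sol, from 24, 23 and 30 genes, and 12 genes with a promoter peak in Quad. These fell from 90, 149 and 96 peaks, from 39, 59 and 46 genes, and from 23 genes. The order of Quad and Sol in peak number turned by this limit. The other 19 values under it stayed within 1.5 times the count or inside the interval given. So did all values on autosomes and X only and with promoters within 1 kb of a TSS. The same held with 50% reciprocal overlap and with peaks within 500 bp joined. These intervals are wide. Under the 20000-peak limit the promoter share of Kcn peaks went from 14.4% to 22% in EDL and from 16.1% to 22.6% in Quad. It went from 14.6% to 15% in Sol and from 23.4% to 25% in Dia. The share of Kcn promoter regions open in all 4 lists went from 31.0% to 47.1% (26.2% to 69.0%). The shares over all peaks and all regions were not computed under this limit, so the contrasts with them were not checked there. No paired analysis was possible because each muscle had 1 library. Leaving out a replicate was not possible for the same reason. Peak width and threshold were set in each library, so a missing peak can be a signal below the threshold, and the part of this in each difference was not tested.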
